A study of Mus musculus with 2 samples.

Results

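Sarcomere and Z-disc genes encode the filaments of the contractile unit of striated muscle and the discs that anchor them. The 49 genes described here were taken from the array by name, as the non-control probes whose annotated gene was one of them. The list of names was drawn up with earlier results of these data known, so the choice was not blind to them. They made up 49 of the 37073 gene names on the array and 111 of its 56605 probes. By role, 17 belong to the thick filament, 16 to the thin filament, 4 to titin and the M-band and 11 to the Z-disc. The remaining gene, *Ldb2*, encodes a nuclear adaptor of LIM domain transcription factors whose symbol resembles that of the Z-disc gene *Ldb3*.

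The values come from MCMs, mouse cardiomyocytes that were bought and passaged, of which 1 culture received the negative control siRNA-NC and 1 the siRNA-*Ppp2r5d*. *Ppp2r5d* encodes the delta isoform of a B′ regulatory subunit of protein phosphatase 2A. Both cultures were grown in DMEM with fetal bovine serum, both were transfected with Lipofectamine RNAiMAX, both were moved to glucose-free medium at 48 h and both were collected at 64 h after transfection. The comparison therefore asks what the siRNA against *Ppp2r5d* changed in cells that all lacked glucose. The strain and the clonal origin of the cells are not given in the sources used here. Each RNA was hybridized to 1 one-colour array, so no value below has a replicate check, no p-value was computed, and the siRNA cannot be told apart from any other difference between the cultures.

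In the sarcomere, thick filaments of myosin slide along thin filaments of actin when calcium binds troponin and tropomyosin moves aside. Titin spans the distance from the Z-disc, where alpha-actinin cross-links the thin filaments, to the M-band, where myomesins hold the thick filaments in register. Most of these proteins exist as cardiac, slow skeletal, fast skeletal and developmental isoforms from separate genes, and the isoform set is one of the best known signatures of a muscle cell type. Embryonic heart and skeletal muscle share several of them, so that single isoforms are seldom restricted to 1 tissue at every age.

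An intensity here is the background-corrected signal of a spot as the scanner software gave it. A probe counted as measured where the software marked it well above background, which began at 14.9 for siRNA-NC and 13.5 for siRNA-*Ppp2r5d*. Log2 fold changes are siRNA-*Ppp2r5d* over siRNA-NC after each array was divided by its 75th percentile, 593 for siRNA-NC and 519 for siRNA-*Ppp2r5d*. A probe of equal intensity on both arrays therefore had a log2 fold change of 0.19, and the median over 20350 genes measured on both arrays was 0.026. Intensities of genes with several probes are geometric means over the probes measured on both arrays. The error given with a log2 fold change is that of the scanner software, with a median of 0.20 over the members, and it leaves out the difference between cultures. Levels of different probes were not compared, because probes differ in how strongly they bind their RNA. In bulk RNA of this kind, fewer cells of a type and less RNA per cell cannot be told apart.

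The targeted gene went from an intensity of 4701 to 676 under siRNA-*Ppp2r5d*, with a log2 fold change of -2.61. Of 12 cardiomyocyte markers, some of which are also members, 6 were measured with siRNA-NC and 8 with siRNA-*Ppp2r5d*. The ventricular and atrial regulatory light chains *Myl2* and *Myl7*, the sarcomeric alpha-actinin *Actn2* and the calcium pump regulator *Pln* were well above background on neither array. The cardiac transcription factors *Nkx2-5* and *Gata4*, which were picked out after their values were seen, had intensities of 1078 and 640 with siRNA-NC. Of 6 skeletal myogenic markers on the array, 4 were measured on both arrays, among them the myogenic factors *Myod1* at 451 and 348 and *Myog* at 254 and 241. *Myf5* and *Pax7*, which mark myoblasts and satellite cells, were measured on neither. Markers of fibroblasts, 9 of 12, of smooth muscle, 6 of 7, and of macrophages, 5 of 6, were also measured on both arrays. Of 7 endothelial markers, 1 was. Of all 37073 gene names, 20350 were measured on both arrays. The labels call these cells cardiomyocytes, while part of the defining cardiac markers were not measured and skeletal ones were, and the cells are called MCMs here as in the labels.

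Of the 49 members, 37 were measured on both arrays and 10 on neither. The other two, *Myh6* and *Mybpc3*, were well above background on the siRNA-*Ppp2r5d* array alone. Over all 37073 gene names, 20350 were measured on both arrays and 15372 on neither. Isoform groups are described by how many genes were measured. Each gene was assigned to a single group, and other assignments were possible. *Myl3* and *Tnnc1*, also of slow muscle, count as cardiac, and *Neb*, described below as skeletal, counts as shared striated. Among cardiac isoforms, 7 of 15 were measured on both arrays and 6 on neither, the latter being *Myl2*, *Myl7*, *Actn2*, *Nebl*, *Myoz2* and *Lmod2*. Among fast skeletal isoforms, 9 of 11 were measured on both arrays, with *Mybpc2* and *Myoz1* on neither. All 3 slow skeletal genes, both developmental myosin heavy chains and all 7 broadly expressed genes were measured on both arrays. Of 11 genes shared by striated muscles, 9 were measured, the exceptions being the muscle creatine kinase *Ckm* and the small muscle protein *Smpx*.

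**Figure D1:**
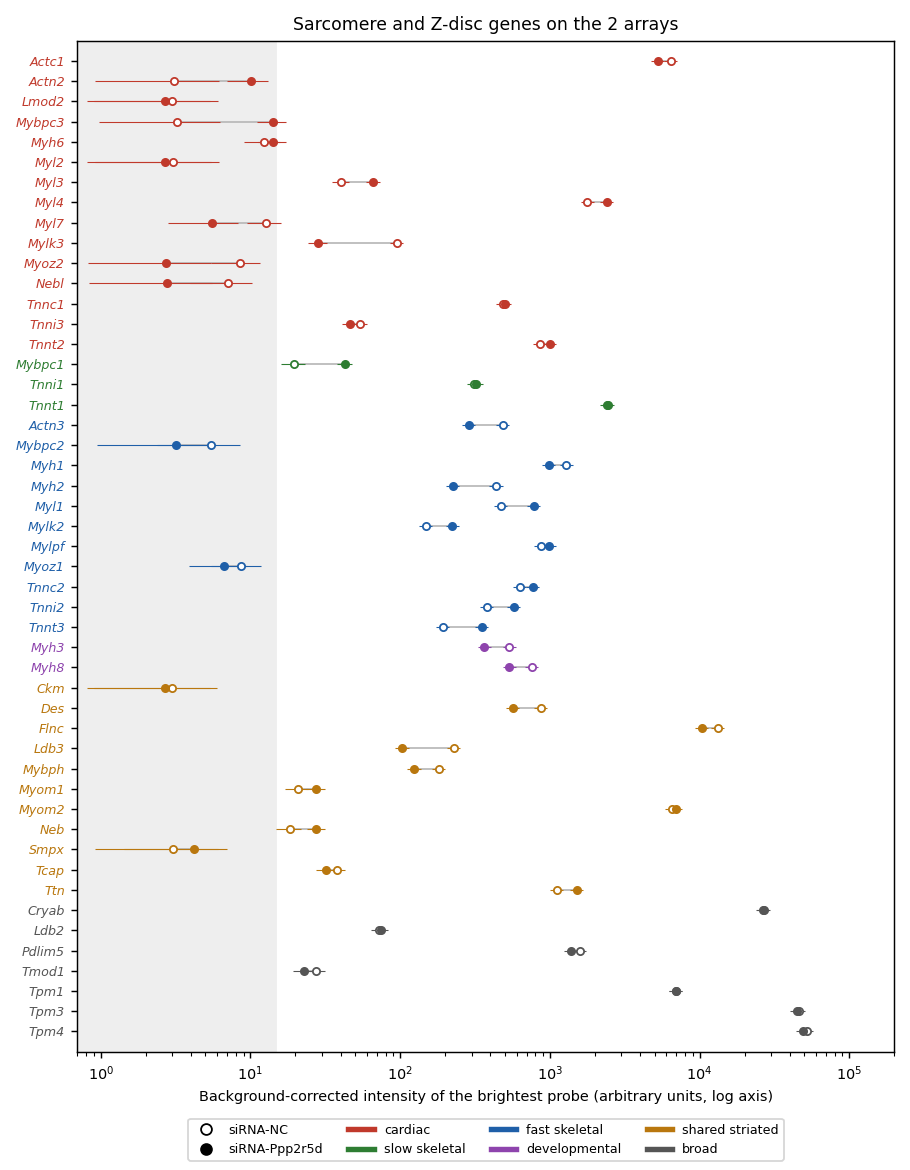
Background-corrected intensity (arbitrary units, log axis) of the brightest probe of each of the 49 members on the siRNA-NC array (open circles) and the siRNA-*Ppp2r5d* array (filled circles), coloured by isoform group. Horizontal coloured lines give the scanner error, shortened on the left where it would reach 0, and the grey band ends at 14.9, the lowest signal counted as measured with siRNA-NC. The 10 members measured on neither array lie in the band, as do *Myh6* and *Mybpc3*, and both circles of a gene may be compared while different genes may not.

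The median log2 fold change of the 37 members measured on both arrays was 0.20, with 21 members above 0 and 16 below. Over all 20350 genes measured on both arrays, 11013 lay above 0 and 9337 below. Changes of at least 2-fold were few among the members. *Tnnt3* and *Mybpc1* were at least 2-fold higher with siRNA-*Ppp2r5d*, 2 of 39 members measured on at least 1 array, against 1.07% of all 21701 genes so measured. *Mylk3* was the 1 member at least 2-fold lower, against 1.46% of all genes. At 1.5-fold, 10 members were higher, namely *Tnnt3*, *Mybpc1*, *Myl3*, *Ttn*, *Myl1*, *Tnni2*, *Neb*, *Mylk2*, *Myl4* and *Myom1*, against 3.86% of all genes. *Myh2* and *Mylk3* were at least 1.5-fold lower, against 5.42% of all genes. The higher members thus included 4 of 9 measured fast skeletal genes, 3 of 9 shared striated genes, 2 of 9 cardiac genes measured on at least 1 array, 1 of 3 slow skeletal genes and none of the 7 broad genes.

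Scaling of the arrays bears on these counts. With the arrays set to equal signals of 8 spike-in probes, the median over all genes was -0.16 in place of 0.026 and that over the members 0.019 in place of 0.20, since this shifts every gene alike. Over all genes at least 2-fold changed, 57.6% were lower in the main values, 79.4% after spike-in scaling and 40.2% after normexp correction with an offset of 50, which compresses dim probes. After normexp correction no member was 2-fold higher or lower. The scanner error was exceeded more than 2 times by the change in 17 of the 37 members in the main values. This count was not made over all genes, and it depends on the scaling. *Tpm3*, which is among the 17, had 0.23 ± 0.092, but 0.053 with spike-in scaling.

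**Figure D2:**
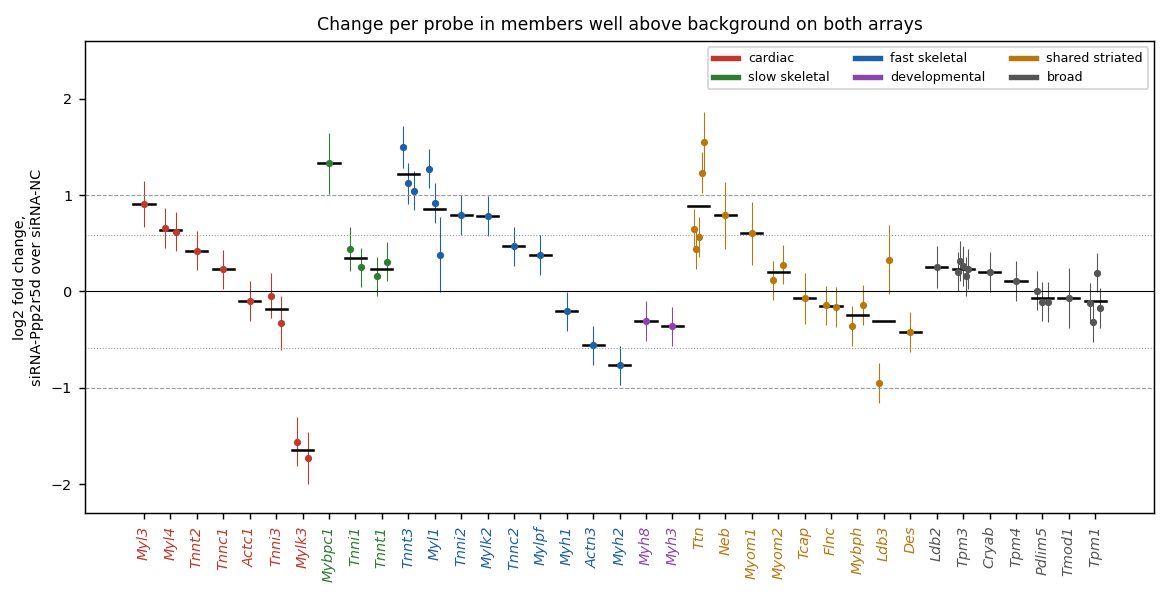
Log2 fold change (siRNA-*Ppp2r5d* over siRNA-NC) of the 37 members measured on both arrays, by isoform group. Points are single probes with their scanner error, black bars are gene means, and dotted and dashed lines mark 1.5-fold and 2-fold. Fast skeletal troponins and light chains lie above 0 and all 4 measured myosin heavy chains below it.

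The troponin complex is the calcium switch of the thin filament. All 8 troponin genes were measured on both arrays, 7 of them lay above 0, and their median log2 fold change was 0.38. Of all 20350 genes measured on both arrays, 11013 lay above 0. Fast skeletal troponin T, *Tnnt3*, which ties the complex to tropomyosin, had an intensity of 101 with siRNA-NC and 206 with siRNA-*Ppp2r5d*. Its log2 fold change was 1.22 ± 0.12 (scanner error), or 2.33-fold, and was 1.05, 1.12 and 1.5 on its 3 probes. The probe with the highest of these, at intensities of 57.9 and 143, is shown because it spans an intron and so reads spliced RNA. Its ends lie at chr7:149698254-149698479 on the plus strand of build mm9, an interval longer than the probe. The 3 probes share at most 15 bases in a row with a probe of another gene.
Tnnt3: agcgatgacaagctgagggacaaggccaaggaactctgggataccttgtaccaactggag

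The inhibitory fast skeletal subunit *Tnni2* had intensities of 379 and 574, a log2 fold change of 0.79. The calcium-binding fast subunit *Tnnc2* had 633 and 766, a log2 fold change of 0.47. All 3 fast skeletal troponins were thus higher on the siRNA-*Ppp2r5d* array, under each scaling run. Slow skeletal troponin T, *Tnnt1*, was at 1718 and 1768, with a log2 fold change of 0.23. Slow troponin I, *Tnni1*, was at 128 and 142, with 0.35. *Tnni1* is also the troponin I of the fetal heart. The cardiac forms were mixed. Cardiac troponin T, *Tnnt2*, was at 858 and 1006, a log2 fold change of 0.42, and *Tnnc1*, the troponin C of heart and slow muscle, was at 488 and 501, with 0.23. Cardiac troponin I, *Tnni3*, was at 45 and 34.6, with a log2 fold change of -0.19 that became 0.014 after normexp correction. Within the troponins, the 3 values for the fast forms lay above those of the 3 cardiac forms, and this order was chosen for description after the values were seen.

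The other thin filament members are actin, tropomyosins and proteins of filament length. *Actc1*, the cardiac actin of the thin filament, was at 6443 and 5268, a log2 fold change of -0.098. None of the tropomyosins, which lie along the actin filament, changed by 1.5-fold. *Tpm1* was at 1151 and 939 over 4 probes, with a log2 fold change of -0.10 and probes between -0.32 and 0.19. Its probe of highest signal gave 0.19, and its probes are annotated to different transcripts. *Tpm3* was at 1254 and 1291 over 5 probes that all lay above 0, with 0.23. *Tpm4*, a tropomyosin of many cell types, was at 51881 and 48965, a log2 fold change of 0.11 that was below 0 under quantile normalization, cyclic loess, spike-in scaling and in the authors' log2 values. Its probe shares 26 bases with a probe of a predicted gene, LOC102633627, so that signal of both may not be separable.

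Proteins that set thin filament length were dim. *Tmod1*, which caps the pointed end, was at 27.4 and 22.8, a log2 fold change of -0.070 that turned to 0.10 after normexp correction. *Neb*, the giant ruler of the skeletal thin filament, was at 18.3 and 27.6 on 1 of its 4 probes, a log2 fold change of 0.79 ± 0.35. Its other 3 probes were near background on both arrays. The cardiac relative *Nebl*, on 6 probes, and the cardiac leiomodin *Lmod2*, which elongates thin filaments, were well above background on neither array.

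Heavy chains of the thick filament carry the motor domain of myosin, and light chains stiffen and regulate its lever arm. Among the members, the 4 measured light chains were higher on the siRNA-*Ppp2r5d* array, with a median log2 fold change of 0.75, and the 4 heavy chains measured on both arrays were lower, with a median of -0.34. These directions held under each scaling run. They do not extend to all myosin genes of the array. The heavy chains *Myh4* and *Myh7*, which are not members, had 0.67 and 0.023, and the light chains *Myl6* and *Myl6b* had 0.17 and -0.17. Of these, *Myh7* and *Myl6* changed sign under some scalings, to as low as -0.16 and -0.012.

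Among light chains, the fast skeletal essential chain *Myl1* was at 130 and 206 over 3 probes, a log2 fold change of 0.86 ± 0.16. Its probes gave 0.38, 0.92 and 1.27, and the lowest of these came from a probe at 16.7 and 19.0, near background. The ventricular and slow skeletal essential chain *Myl3* was at 40.4 and 66.2, a log2 fold change of 0.90 ± 0.24. The probes of *Myl1* and *Myl3* share a run of 18 bases, marked in capitals below, which limits how far the dim signal of *Myl3* can be separated from that of *Myl1*. The *Myl3* probe also shares 24 bases with a probe of the non-muscle light chain *Myl6*. The highest probe intensities of *Myl6* were 126353 with siRNA-NC and 127783 with siRNA-*Ppp2r5d*, so *Myl6* limits the *Myl3* value as well. The *Myl1* probe, at chr1:66971597-66972798 on the minus strand of mm9, is printed up to its stop codon, and the *Myl3* probe lies at chr9:110671632-110671926 on the plus strand. Both intervals are longer than the probes, as for probes that span an intron.
Myl1: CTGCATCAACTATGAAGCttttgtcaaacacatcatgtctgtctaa
Myl3: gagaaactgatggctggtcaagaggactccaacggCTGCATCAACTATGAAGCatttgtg

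The atrial and embryonic essential chain *Myl4* was at 866 and 1179, a log2 fold change of 0.64, with 0.62 and 0.66 on its 2 probes. The fast skeletal regulatory chain *Mylpf* was at 872 and 992, with 0.38. A further *Mylpf* probe was measured with siRNA-NC alone, at 17.8 against 12. The cardiac regulatory chains *Myl2* and *Myl7* were measured on neither array.

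The kinases of the regulatory light chain went in opposite directions. *Mylk3*, the cardiac myosin light chain kinase, was at 91.1 with siRNA-NC and 25.6 with siRNA-*Ppp2r5d*, a log2 fold change of -1.64 ± 0.18, or 3.12-fold lower. Its 2 measured probes gave -1.56 and -1.72, and the other, nearer the start of the transcript, was near background on both arrays. The measured probes lie at chr8:87848346-87848405 and chr8:87851047-87851106 of mm9 on the minus strand. No other member measured on both arrays changed by as much. After normexp correction it was -0.62. *Mylk2*, the skeletal myosin light chain kinase, was at 149 and 224 on 1 of 2 probes, a log2 fold change of 0.78 ± 0.21.

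Fast skeletal *Myh1*, the IIx heavy chain, was at 1290 and 979, a log2 fold change of -0.20. *Myh2*, the fast IIa heavy chain, was at 439 and 226, with -0.77, or 1.70-fold lower. Embryonic *Myh3* was at 537 and 365, with -0.36, and perinatal *Myh8* at 760 and 537, with -0.31. Each of these values rests on 1 probe at the 3′ end of its transcript, while the probes nearer the 5′ end of *Myh2*, *Myh3* and *Myh8* were at or near background. A second probe of *Myh8* was well above background on the siRNA-*Ppp2r5d* array alone, at 16.1 against 7.1, which is opposite to the first. With dim probes included, *Myh8* had a log2 fold change of 0.27. The probes of *Myh1* and *Myh8* share 19 bases, gaggttcacaccaaaatca, so signal of one may add to that of the other. The cardiac alpha heavy chain *Myh6* was at 12.4 and 14.3 on its 3′ probe, and was well above background on the siRNA-*Ppp2r5d* array alone. It was at least 1.09-fold higher, a bound that spike-in scaling removes.

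Among the myosin-binding proteins, which stripe the thick filament, slow skeletal *Mybpc1* was at 19.6 and 42.9, a log2 fold change of 1.33 ± 0.32, or 2.51-fold. This came from 1 of 4 probes, the one nearest the 3′ end at chr10:87981078-87981137 on the minus strand, the other 3 being near background on both arrays, and it became 0.49 after normexp correction. With the filter on positive and significant signal *Mybpc1* had 0.46 and without a filter 0.30, so that the 2-fold call rests on leaving out its dim probes. Cardiac *Mybpc3* was at 3.23 and 14.2, measured with siRNA-*Ppp2r5d* alone and at least 1.08-fold higher, a bound that spike-in scaling also removes. *Mybph* was at 172 and 127 over 2 probes, with -0.25. Fast skeletal *Mybpc2* was measured on neither array.

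Titin, the molecular spring of the sarcomere, was higher on each of its probes. *Ttn* was at 122 with siRNA-NC and 197 with siRNA-*Ppp2r5d* over 5 probes, a log2 fold change of 0.89 ± 0.10, or 1.85-fold. The probes lie over 260 kb of chromosome 2 on the minus strand, and the 2 at the 5′ side had the larger values. The probe farthest 5′ was at 19.5 and 49.8, and changed by 1.55 on the log2 scale. The next, 210 kb from the 3′-most probe, was at 79.5 and 164, with 1.23. A sixth probe at 132 kb was well above background on the siRNA-*Ppp2r5d* array alone, at 14.1 and 20.5, which gives at least 0.65. The probe at 128 kb was at 115 and 149, with 0.56. The other two lie within 0.578 kb of each other at the 3′ end, with 134 and 159 and a log2 fold change of 0.44, and with 1109 and 1520 and 0.65. The transcripts annotated to the probes differ, and the part of titin isoforms in the order of these values was not tested. With the probe of highest signal alone, *Ttn* had a log2 fold change of 0.65.

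Sequences of the probe farthest 5′ (chr2:76802542-76802601) and of the probe at 128 kb (chr2:76669859-76669918), both on the minus strand of mm9, are shown because the larger change was read near the start of the gene and the smaller one nearer its middle. Which exon each belongs to was not analysed here.
Ttn, farthest 5′: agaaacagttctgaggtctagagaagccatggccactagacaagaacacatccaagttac
Ttn, 128 kb: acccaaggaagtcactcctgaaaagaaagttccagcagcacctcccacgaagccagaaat

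**Figure D3:**
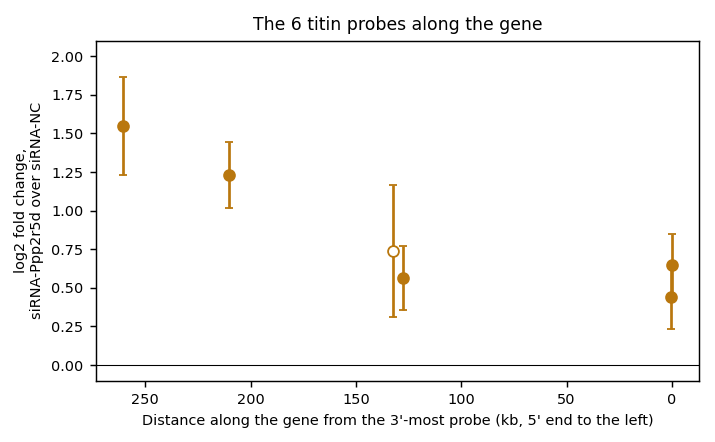
Log2 fold change (siRNA-*Ppp2r5d* over siRNA-NC) of the 6 titin probes against their distance in kb from the 3′-most probe, with the 5′ end to the left and vertical lines for the scanner error. The open circle was well above background with siRNA-*Ppp2r5d* alone, and its plotted value uses the dim signal as read. The 2 probes at 260 and 210 kb have 1.55 and 1.23, and the other 4 lie lower.

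At the M-band, *Myom1*, the myomesin of all striated muscle, was at 20.7 and 27.5 on 1 of 2 probes, a log2 fold change of 0.60 ± 0.33. *Myom2*, the myomesin of fast and adult heart muscle, was at 1404 and 1408, with 0.20. *Ckm*, which binds the M-band of mature muscle, was measured on neither array.

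Of the 11 Z-disc members, 7 were measured on both arrays, 6 of these lay below 0, and the median log2 fold change was -0.15. Of all 20350 genes measured on both arrays, 9337 lay below 0. None of the 7 Z-disc members reached 1.5-fold in the main values. With spike-in scaling *Actn3* and *Des* did, at -0.74 and -0.60. The Z-disc genes *Csrp3*, *Mypn* and *Pdlim3*, which are not members, were higher, with 1.93, 0.82 and 0.80. Fast skeletal alpha-actinin, *Actn3*, was at 483 and 287, a log2 fold change of -0.56 ± 0.20, while *Actn2* was well above background on neither array. Desmin, *Des*, the intermediate filament that links neighbouring Z-discs, was at 866 and 567, with -0.42. *Flnc*, the muscle filamin that bundles actin at the disc, was at 2489 and 1958, with -0.15. The remaining values were smaller or divided. *Pdlim5*, a PDZ and LIM domain scaffold, was at 499 and 416, with -0.070, and its probe of highest signal gave 0.0068. *Tcap*, which caps titin at the Z-disc, was at 38.1 and 31.8, with -0.071, and had 0.035 after normexp correction. *Cryab*, a small heat shock protein that protects desmin and titin, was at 26608 and 26768, with 0.20, and was the 1 value above 0.

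*Ldb3*, also called ZASP or Cypher, was at 66.7 and 47.1 with a log2 fold change of -0.31, but its 2 probes disagreed. The probe at the 3′ end, chr14:35340222-35340281 on the minus strand, was at 228 and 103, with -0.95, and the probe at chr14:35374689-35374748, annotated to a different transcript, was at 19.5 and 21.5, with 0.33 ± 0.35. The nuclear *Ldb2* was at 71.9 and 75, with 0.25. The calsarcins *Myoz1* and *Myoz2* and *Smpx* were measured on neither array.

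By isoform group, the median log2 fold change was 0.47 over 9 fast skeletal genes, 0.35 over 3 slow skeletal genes, 0.23 over 7 cardiac genes, 0.11 over 7 broad genes, -0.071 over 9 shared striated genes and -0.34 over the 2 developmental heavy chains. The fast skeletal group was itself divided. Without its 2 heavy chains, 6 of 7 measured genes lay above 0 with a median of 0.78, the exception being *Actn3*. The median over all genes measured on both arrays was 0.026, and -0.16 with spike-in scaling. With spike-in scaling the group medians were 0.29 for fast skeletal, 0.16 for slow skeletal and 0.047 for cardiac genes. They were -0.25 for shared striated and -0.52 for developmental genes. With dim probes included, the fast skeletal median was 0.0012, the cardiac median 0.034 and the developmental median 0.10. The median of the broad group was below 0 under 4 scalings, from -0.0015 to -0.073, and that of the shared striated group was 0.035 after normexp correction.

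**Figure D4:**
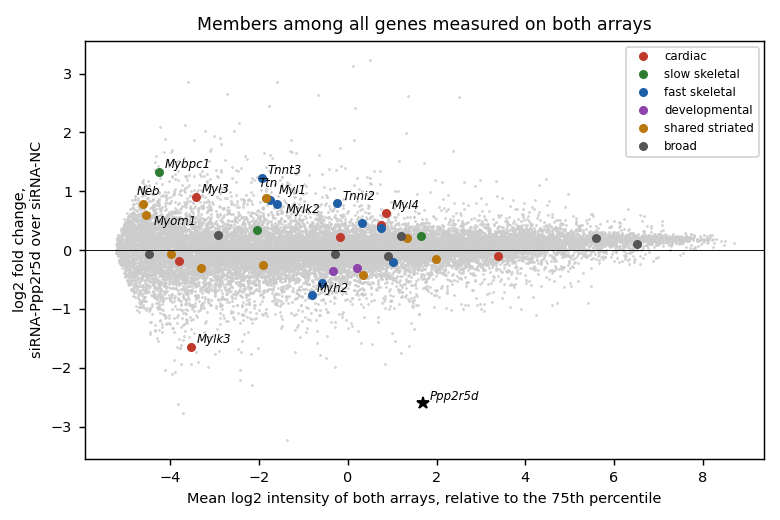
Log2 fold change (siRNA-*Ppp2r5d* over siRNA-NC) against the mean log2 intensity of both arrays relative to the 75th percentile, for the 20350 genes measured on both arrays (grey) and the 37 members (coloured by isoform group). Members at least 1.5-fold changed are named, most of them in the dimmer part of the range, and the star is *Ppp2r5d* at -2.61.

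In the main values, probes of the same gene mostly shared a direction. Of 15 members with several probes measured on both arrays, 12 had all probes on the same side of 0, and the exceptions were *Tpm1*, *Ldb3* and *Pdlim5*. The same share over all genes was not computed, and the count depends on the scaling. Single probes of *Tpm3*, *Tnnt1* and *Myom2*, with 0.16, 0.16 and 0.11, were dimmer with siRNA-*Ppp2r5d* before scaling. Of the 15 members, all 5 that were at least 1.5-fold changed, *Tnnt3*, *Ttn*, *Myl1*, *Myl4* and *Mylk3*, had every measured probe on the same side. The values of *Mybpc1*, *Myl3*, *Neb*, *Myom1*, *Tnni2*, *Mylk2* and *Myh2* rest on 1 probe each.

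**Figure D5:**
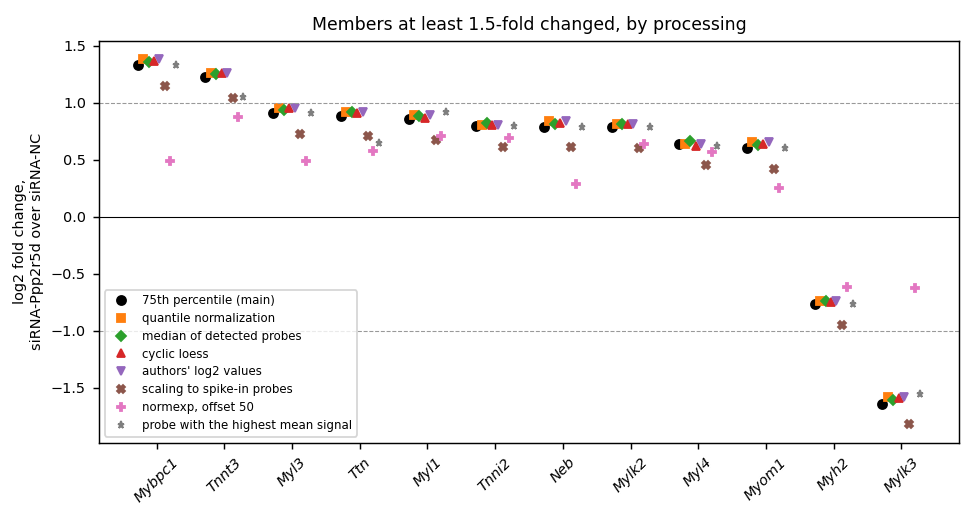
Log2 fold change (siRNA-*Ppp2r5d* over siRNA-NC) of the 12 members at least 1.5-fold changed, under the main scaling to the 75th percentile and 7 alternatives (symbols). Dashed lines mark 2-fold. No member changes side of 0, and normexp correction brings the dim genes *Mybpc1*, *Myl3*, *Neb*, *Myom1* and *Mylk3* closest to 0 among the settings drawn.

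Promoters of the members were read from RefSeq (GRCm38.p6), from 250 bases before to 50 bases after each annotated start, and 50 promoters of 39 members were found. They were searched on both strands for the E-box CANNTG, bound by myogenic factors, the MCAT motif CATTCC, bound by TEAD factors, and the MEF2 and CArG motifs of MEF2 and serum response factor. CANNTG was present in 76% of the member promoters and in 72.3% of all 32851 promoters of this length. CATTCC was in 32% and 14.7%, the MEF2 motif in 10% and 3.19%, and the CArG box in 14% and 1.63%. Of 6 promoters of members at least 1.5-fold higher, 5 held CANNTG, 3 CATTCC, 2 a CArG box and 1 a MEF2 motif, while 4 of these 10 members had no promoter matched. Of 28 promoters of members between the 1.5-fold thresholds, 21 held CANNTG, 9 CATTCC, 3 a CArG box and 3 a MEF2 motif. Of 13 promoters of members measured on neither array, these were 11, 3, 2 and 1, and of 3 promoters of lower members 1, 1, 0 and 0. A match describes the letters and not the binding of a factor. The stretches around the CArG box of *Myl3* and *Myom1* and the MEF2 motif of *Ttn* are shown, with these motifs and any CANNTG match in capitals. They lie at chr9:110763568-110763627 on the plus strand, chr17:71019433-71019492 on the plus strand and chr2:76982679-76982738 on the minus strand, and end 51, 65 and 132 bases before the start.
Myl3 promoter: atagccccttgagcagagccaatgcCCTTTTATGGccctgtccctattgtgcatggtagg
Myom1 promoter: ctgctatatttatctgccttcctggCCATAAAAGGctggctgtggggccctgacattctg
Ttn promoter: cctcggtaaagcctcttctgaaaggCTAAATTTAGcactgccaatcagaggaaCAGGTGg

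A further list of 47 sarcomere genes that are not members, also chosen with earlier results of these data known, was used for comparison. Of these, 34 were measured on both arrays, 24 above 0 and 10 below, with a median log2 fold change of 0.11. Over all genes measured on both arrays, 11013 lay above 0 and 9337 below. At 1.5-fold, 8 of the 38 listed genes measured on at least 1 array were higher and 2 lower. Over all genes so measured, these shares were 3.86% and 5.42%. *Csrp3*, the muscle LIM protein of the Z-disc, was at 37.7 and 126, with 1.93. *Pdlim3*, a Z-disc LIM protein, was at 5774 and 9993 on its brighter probe, with 0.80 over both probes. *Klhl40* and *Klhl41*, kelch proteins that stabilize nebulin and other thin filament proteins, had 0.86 and 0.62, and the ubiquitin ligase *Trim63* had 0.84. *Klhl41* was near background, at 18.7 and 25.1. The Z-disc linker *Mypn* had 0.82, the IIb heavy chain *Myh4* had 0.67 at 27.0 and 37.7, and *Myom3* had at least 0.62. Under other scalings, *Klhl41*, *Myh4*, *Myom3*, *Mypn* and *Trim63* fell below 1.5-fold, to as low as 0.27, 0.32, 0.32, 0.44 and 0.53. The lower genes were the M-band linker *Obsl1*, with -0.69 over 4 probes, and the co-chaperone *Bag3*, at 23945 and 13672, with -0.62. Skeletal actin, *Acta1*, was at 2636 and 2980, with 0.37, and the cardiac beta heavy chain *Myh7* was at 48.1 and 42.8, with 0.023, which became -0.16 with spike-in scaling.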

How the data were processed

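RNA of 2 cultures of MCMs, 1 per condition, was labelled with Cyanine 3 and measured on 2 one-colour Agilent arrays, with groups from GEO's labels. The authors deposited the background-corrected intensity of each spot from Feature Extraction 10.7.1.1, per the file headers, and a table of log2 values that matched a quantile normalization of these intensities with a median absolute difference of 2.13e-06. No spot was saturated, and 35544 and 35174 of 59305 non-control spots were well above background.

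Spots that the software marked as feature outliers, 126 on the control array and 95 on the other and none of them in a member probe, were left out. Log2 intensities of spots of a probe were averaged and the 75th percentile was subtracted. A gene is the mean over probes well above background on both arrays, and a probe dim on 1 array gave a bound from the lowest signal well above background. Probes with 10 spots, 293 in all, had a median SD of 0.036 between the log2 fold changes of their spots, which covers spots and not cultures, and the number of arrays limits the precision. The t-test of the study's methods was not run with 1 array per condition. Every member is named, those measured with their intensities, as are other sarcomere genes at least 1.5-fold changed with *Myh7*, *Csrp3* and *Acta1*. Marker genes measured on an array and named were picked after their values were seen. Members and lists were chosen with earlier results of these data known. Probe coordinates are of build mm9 in the scanner files and promoters of GRCm38.p6.

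Alternatives were cyclic loess, quantile normalization, scaling to spike-in probes or to the median of detected probes, the authors' log2 values, normexp with an offset of 50, 2 filters on dim probes, outliers kept, the brightest probe and other fold thresholds. The steps were tested on simulated data. Python 3.11.15 (pandas 2.3.3, NumPy 2.4.6, matplotlib 3.10.9) was used with R 4.3.3 and its package limma 3.58.1.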

Additional observations from a re-analysis of the deposited data

How the results depend on the processing

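No paired analysis was possible because each condition had a single array, and no replicate could be left out. The count of members at least 2-fold higher, 2, was 0 after normexp correction, 4 with the filter on positive and significant signal, 10 at 1.5-fold and 0 at 4-fold. The count at least 2-fold lower, 1, was 0 after normexp correction, 2 at 1.5-fold, 0 at 4-fold, 2 with that filter and 2 without any filter on dim signal. The members' median of 0.20 was 0.019 with spike-in scaling and 0.11 without a filter. Some directions turned. With the positive and significant filter and without a filter, *Myh8* had 0.53 and 0.27 and the developmental median was 0.23 and 0.10. After normexp correction, *Tnni3* had 0.014, *Tmod1* 0.10, *Tcap* 0.035 and the shared striated median 0.035, which was 0.031 without a filter. *Tpm4* had -0.044 under quantile normalization, -0.043 under cyclic loess, -0.073 with spike-in scaling and -0.041 in the authors' values, and the broad median had -0.0015, -0.034, -0.073 and -0.0015. With the brightest probe *Tpm1* had 0.19 and *Pdlim5* 0.0068. *Myh6* and *Mybpc3* had no bound above 0 with spike-in scaling. *Mybpc1*, at 1.33, had 0.46 with the positive and significant filter and 0.30 without a filter. The cause was not tested, except that thresholds and filters change counts by construction. Signal over background limits *Neb*, *Myom1*, *Mybpc1*, *Tmod1*, *Tcap*, *Myh6* and *Mybpc3* in particular.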

Other observations

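Values of the marker lists stand here for the members' context, but the lists are not separate from the members. The cardiomyocyte markers *Myh6*, *Tnnt2*, *Tnni3*, *Myl2*, *Myl7* and *Actn2* and the smooth muscle marker *Des* are members, so these values partly repeat theirs. The summed intensity of the markers, divided by the 75th percentile of each array, was 4.82 with siRNA-NC and 5.41 with siRNA-*Ppp2r5d* for 12 cardiomyocyte markers, and 77.0 and 85.2 for 6 skeletal myogenic markers. It was 815 and 856 for 12 fibroblast markers, 307 and 312 for 7 smooth muscle markers and 14.1 and 12.4 for 6 macrophage markers. Before this division, each of these sums was lower with siRNA-*Ppp2r5d*. They were 2857 and 2804 for cardiomyocyte, 45619 and 44219 for skeletal myogenic and 482811 and 443955 for fibroblast markers. *Chrna1* alone, at 44851 and 43557, made up most of the skeletal myogenic sum. A sum mostly reflects its brightest probes, which differ in binding. Of 7 endothelial markers, 1 was measured with siRNA-NC and 2 with siRNA-*Ppp2r5d*. Their part in the members' values was not tested.

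Skeletal myogenic markers measured on both arrays, named after their values were seen, did not share a direction. *Myod1*, a master factor of the skeletal lineage, had a log2 fold change of -0.18, and *Myog*, which drives differentiation, had 0.12. *Myf6*, a late myogenic factor, was at 52.2 and 63.6, with 0.48, and *Chrna1*, the acetylcholine receptor subunit of muscle, was at 44851 and 43557, with 0.15. Of these, *Myog* and *Chrna1* were below 0 with spike-in scaling, at -0.066 and -0.031. Of 6 measured smooth muscle markers, 2 lay above 0 and 4 below, with a median of -0.066. *Cnn1*, an actin-binding calponin, was at 288 and 1341 on 1 of 2 probes, with 2.41, while *Acta2* had -0.020 over 4 probes that ranged from -0.40 to 0.40. *Tagln*, an actin-binding protein of smooth muscle, had 0.85, *Des* -0.42, *Myh11* -0.38 and *Smtn* -0.11. Of 6 cardiomyocyte markers measured on both arrays, 4 lay above 0 and 2 below, with a median of 0.25. The natriuretic peptide *Nppa* was at 16.6 and 22.4, with 0.62, and the calcium release channel *Ryr2* was well above background with siRNA-*Ppp2r5d* alone, with at least 0.56. Myoglobin, *Mb*, was at 89.8 and 109, with 0.47. *Tnnt2* had 0.42, *Nkx2-5* 0.086 (as low as -0.096 under another scaling), *Gata4* -0.18 and *Tnni3* -0.19.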
